A study of Arabidopsis thaliana with 8 samples.

Results

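AT3G23940 is the Arabidopsis thaliana gene for dihydroxyacid dehydratase, and 1 of the 3439 spots on the array is assigned to it alone. The gene was chosen by its measured spot intensity, which was much higher in the tatA line than in the wild type, so its values on the 8 arrays are given as a description, without a test. The arrays compared total RNA of the wild type (WT), ecotype Columbia 0, with that of an antisense line of tatA, labelled as a tata mutant of the same ecotype, with 4 arrays of each. TatA belongs to the twin-arginine translocase, which moves folded proteins from the chloroplast stroma across the thylakoid membrane. The labels give neither tissue nor age, the promoter of the antisense construct, nor the number of plants or independent lines. Nothing in them says that the 4 samples of a group came from separate plants, so spreads and p-values refer to these samples and may be technical. The spot of TATA itself is not analysed here.

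Dihydroxyacid dehydratase works in the plastid stroma, where branched-chain amino acids are made. It removes water from the dihydroxy acids that ketol-acid reductoisomerase makes, giving the 2-oxo acids from which valine, isoleucine and, by a side branch, leucine are formed. The same enzymes act on the valine and the isoleucine branch in parallel. Dihydroxyacid dehydratase carries an iron-sulfur cluster and is the target of the fungal compound aspterric acid, which acts as a herbicide. The gene is nuclear, on chromosome 3, and the RefSeq annotation of TAIR10.1 lists 2 transcripts. Which stretch of them the spot carries is not stated in the sources used, so the transcripts cannot be told apart.

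Transcript signal of AT3G23940 ranked low among the spots of each WT array and lay above the median spot of each tatA array. On the deposited intensity scale, which is linear and runs from 0 to 100, the spot read 0.110, 0.0741, 0.0723 and 0.103 on WT replicates 1 to 4. On tatA replicates 1 to 4 it read 0.514, 0.571, 0.537 and 0.549. The groups did not overlap, and the lowest tatA value was 4.68 times the highest WT value. After the quantile normalization described below, 16.6% of all rows lay apart with tatA higher. Means were 0.0898 ± 0.0194 for WT and 0.543 ± 0.0237 for tatA (SD, n = 4 arrays), a 6.04-fold difference. In total RNA of a whole sample, more RNA per cell and more cells that make it cannot be told apart.

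**Figure D1:**
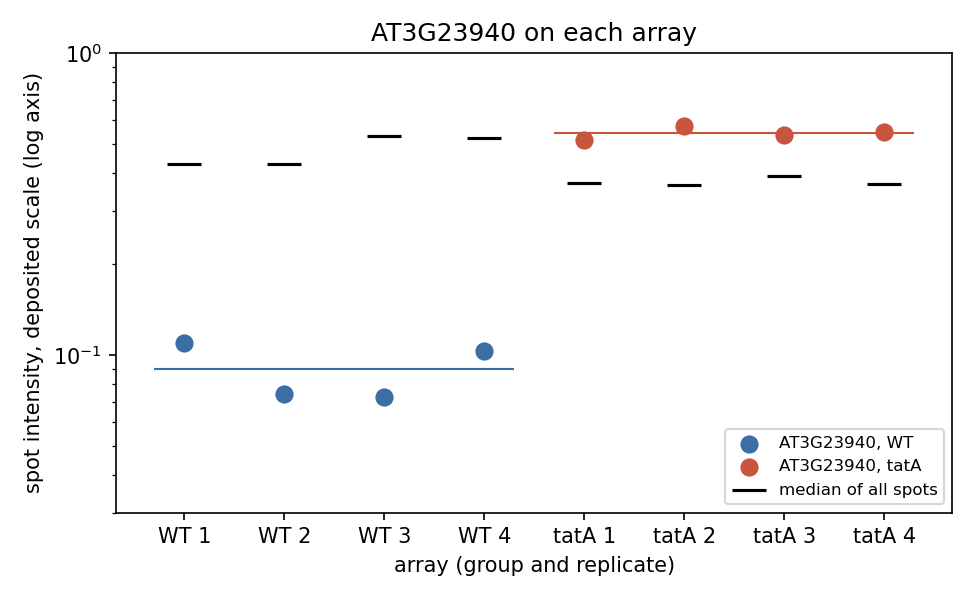
Deposited spot intensity of AT3G23940 (circles, log axis) on each of the 4 WT and 4 tatA arrays, with the group mean as a line and the median of all 3439 spots of each array as a black dash. AT3G23940 lies below the array median on the 4 WT arrays (0.0723 to 0.110) and above it on the 4 tatA arrays (0.514 to 0.571).

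The array as a whole moved the other way. The median spot read 0.429 to 0.531 on the WT arrays and 0.365 to 0.390 on the tatA arrays. Set against the median spot of its own array, AT3G23940 stood at 0.256, 0.172, 0.136 and 0.197 on WT replicates 1 to 4. The same ratio was 1.38, 1.57, 1.38 and 1.49 on tatA replicates 1 to 4. Its mean thus went from 0.190 ± 0.0503 to 1.45 ± 0.0909 times the median spot (SD, n = 4 arrays), 7.64-fold, a larger ratio than on the deposited scale.

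Ranks, which no scaling of an array can alter, showed the same difference. Counted from the brightest of 3439 spots, AT3G23940 ranked 2957, 3064, 3137 and 3043 on WT replicates 1 to 4. It ranked 1224, 1091, 1247 and 1189 on tatA replicates 1 to 4. In WT, then, between 86.0% and 91.2% of spots were at or above it, and in tatA between 31.7% and 36.3%. The mean gain was 1862.5 places. A larger mean gain was found for 13 spots, of which 4 carry a gene name: AT1G22700, AT5G46390, AT2G30100 and AT5G22620. AT1G22700 is PYG7, needed to assemble photosystem I. Passing from at or below the array median on the 4 WT arrays to above it on the 4 tatA arrays was shared by 91 spots, 17 of them with a gene name, and the opposite course by 57 spots, 15 of them named.

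**Figure D2:**
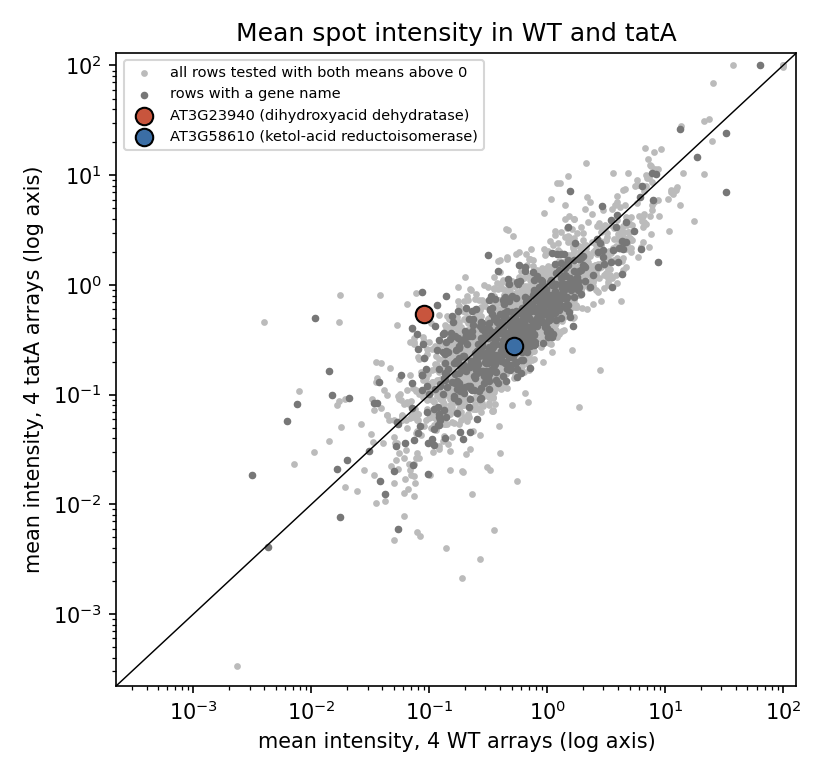
Mean intensity on 4 WT arrays (x axis, log) against the mean on 4 tatA arrays (y axis, log) for rows tested with both means above 0, where named genes are dark grey and the line marks equality. AT3G23940 (red, 0.0898 and 0.543) lies far above the line at the upper edge of the cloud, and AT3G58610 (blue, 0.521 and 0.277) lies below it.

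Other spots as dim as AT3G23940 in WT mostly stayed dim in tatA. Of 107 other spots within 1.25-fold of its WT mean, 3 had a higher tatA mean than AT3G23940. Since AT3G23940 was chosen by these same values, its place among those spots and its spread below are a description. The median tatA mean of those 107 spots was 0.102, and the median ratio of their tatA to WT means was 1.03. The values of AT3G23940 were also close together within each group. Its coefficient of variation was 21.6% in WT, where the median of those 107 spots was 51.0%. In tatA it was 4.37%, and the 624 other spots within 1.25-fold of its tatA mean had a median of 16.9%, with 97.4% of them more variable.

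Replicates 1 and 2 of a group resemble each other over all spots, as do replicates 3 and 4, and the intensity of AT3G23940 had similar means in the pairs. Its tatA mean was 0.543 in either pair. Its WT mean was 0.0920 in replicates 1-2 and 0.0876 in replicates 3-4. The difference between the groups was therefore 5.90-fold within replicates 1-2 and 6.20-fold within replicates 3-4. After the quantile normalization described next, the pairs lay further apart, with log2 differences of 2.90 and 3.35.

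After quantile normalization, which gives all arrays 1 common distribution, the log2 values of AT3G23940 were -3.27, -3.87, -4.52 and -3.64 on WT replicates 1 to 4. On tatA replicates 1 to 4 they were -0.74, -0.59, -0.76 and -0.70. The means were -3.83 ± 0.53 and -0.70 ± 0.074 (SD, n = 4 arrays), a difference of 3.13. WT replicates 2 and 3, which differed little in intensity (0.0741 and 0.0723), lie 0.66 apart on this scale, since WT replicate 3 was the lower of them in rank on a brighter array. Of all 3261 rows in the limma test 32.1% passed (adjusted by Benjamini-Hochberg, threshold 0.05), 15.3% as higher and 16.8% as lower in tatA. The groups lay apart in 35.5% of rows, with tatA above WT in 16.6% and below it in 18.9%. AT3G23940 is in these sets by the way it was chosen.

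The size of the difference depended more on the offset added before taking log2 than on the scaling. Without an offset it was 2.62 on the deposited scale, 2.97 with each array centred on its median, 3.02 with each array scaled to its 75th percentile and 3.13 after quantile normalization. With quantile normalization and an offset equal to the 1st percentile of the positive values (0.0159), it was 2.85. With the 10th percentile (0.118), which is above all 4 WT values of AT3G23940, it was 1.93. The 25th percentile (0.238) gave 1.45 and the median (0.453) gave 1.02. With the 10th percentile offset the scalings gave 1.67 on the deposited scale, 1.95 with median centring and 2.02 with the 75th percentile. Expressed as folds, settings ran from 2.03 to 10.2, and AT3G23940 was higher in tatA in each of the 32 settings that held it. All settings reuse the same arrays and the gene was chosen for this rise, so its sign across them is no separate support.

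**Figure D3:**
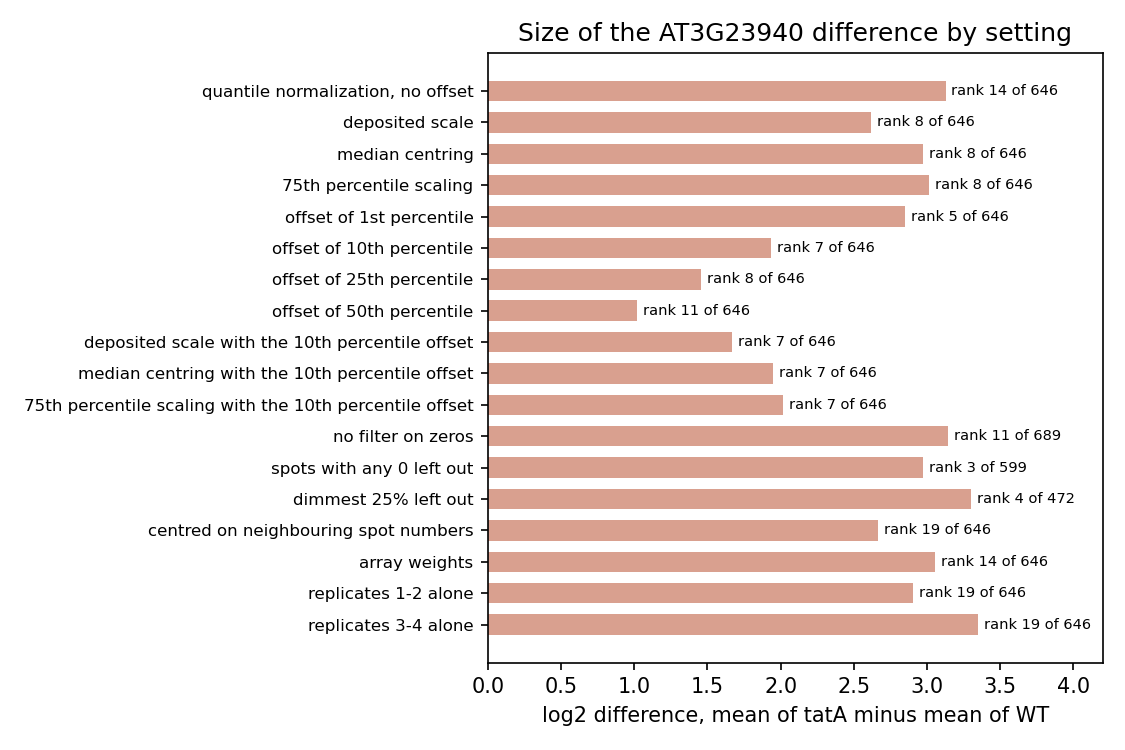
Log2 difference of AT3G23940, mean of tatA minus mean of WT (bars from 0), under each scaling, offset and filter, with its rank by size of rise among the named genes of that setting. The bars run from 1.02 with the median as offset to 3.35 in replicates 3-4 alone, and to 3.30 among scalings, offsets and filters. Ranks run from 3 to 19, with 19 in either replicate pair alone and with centring on spot numbers.

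Named genes were ranked by the size of their rise. By the log2 difference after quantile normalization AT3G23940 ranked 14 among 646 named genes and 52 among all 3261 rows. Of the 13 named genes ranked above it, 10 were listed at 0 on at least 1 array, so that their differences rest on the value set for zeros, and 6 did not pass limma's test. With spots holding any 0 left out, AT3G23940 ranked 3 of 599, after AT1G22700 (3.67) and AT4G14330 (3.17), a kinesin-related gene. Across the offsets it ranked between 5 and 11 of 646, and it ranked 8 under each of the other scalings, the deposited one included.

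The nearest named genes by size of rise show how unlike such values can be. FBL17, an F-box gene of pollen germ cell division, had a log2 difference of 3.16, with WT intensities from 0.0464 to 0.094 and tatA intensities from 0.307 to 0.569. AT5G22620, of the phosphoglycerate mutase family, and AT5G46390, of the C-terminal processing peptidase family, followed AT3G23940 with 3.04 each. In these 3 genes, as in AT3G23940, the groups did not overlap, which held with tatA higher for 16.6% of all rows after quantile normalization. The other neighbours in rank, AT1G54520, AT1G12230 and AT1G21350, were listed at 0 on 4, 3 and 3 of the 8 arrays and their groups overlapped.

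Among the other genes of branched-chain amino acid synthesis, only ketol-acid reductoisomerase (AT3G58610), the enzyme just before dihydroxyacid dehydratase, was measured under its own name. The list of 21 other genes of this route, from threonine deaminase and acetohydroxyacid synthase to the branched-chain aminotransferases, had 1 member on the array, and 0 passed after quantile normalization (limma, 1 at an unadjusted p under 0.05). Of all rows 32.1% passed and 44.8% had an unadjusted p under 0.05. AT3G58610 read 0.549, 0.483, 0.461 and 0.592 on WT replicates 1 to 4. On tatA replicates 1 to 4 it read 0.159, 0.290, 0.349 and 0.311. On this deposited scale every tatA value lay below every WT value, as for 33.7% of all rows, and tatA replicate 1 was the lowest. The mean was 0.521 ± 0.0602 in WT and 0.277 ± 0.0826 in tatA (SD, n = 4 arrays), a ratio of 0.532.

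Whether AT3G58610 passed depended on the scaling. After quantile normalization its log2 difference was -0.62 (SE 0.27, limma adjusted p = 0.108) and the groups overlapped. On the deposited scale it fell, with a log2 change of -0.96 (limma adjusted p = 0.0179). On that scale 42.6% of all rows passed, 310 higher and 1080 lower in tatA, against 499 higher and 547 lower after quantile normalization, and the median row lay at -0.47. The value of AT3G58610 was negative in all 32 settings that held it and passed in 2 of them, with limma adjusted p from 0.0112 to 0.509. It was -1.05 in replicates 1-2 and -0.18 in replicates 3-4, and -0.37 without tatA replicate 1.

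Each array thus showed these successive steps at different places relative to its own median spot. AT3G58610 stood at 1.10 ± 0.171 times the median spot in WT and 0.741 ± 0.213 times in tatA (SD, n = 4 arrays). The log2 ratio of AT3G23940 to AT3G58610 on the same array, which no scaling factor of an array can change, was -2.56 ± 0.17 in WT and 1.03 ± 0.47 in tatA (SD, n = 4 arrays). Its range was -2.70 to -2.32 in WT and 0.62 to 1.69 in tatA. That these ranges lie apart follows from the deposited values and adds nothing to them. There, AT3G23940 was higher and AT3G58610 lower on every tatA array than on every WT array. The shift of 3.58 says that the signals of these genes changed unequally. The ratio itself is not one of transcript numbers, since signals of different spots are not on 1 scale. Most of the shift is the difference for which AT3G23940 was chosen, and no test is given.

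**Figure D4:**
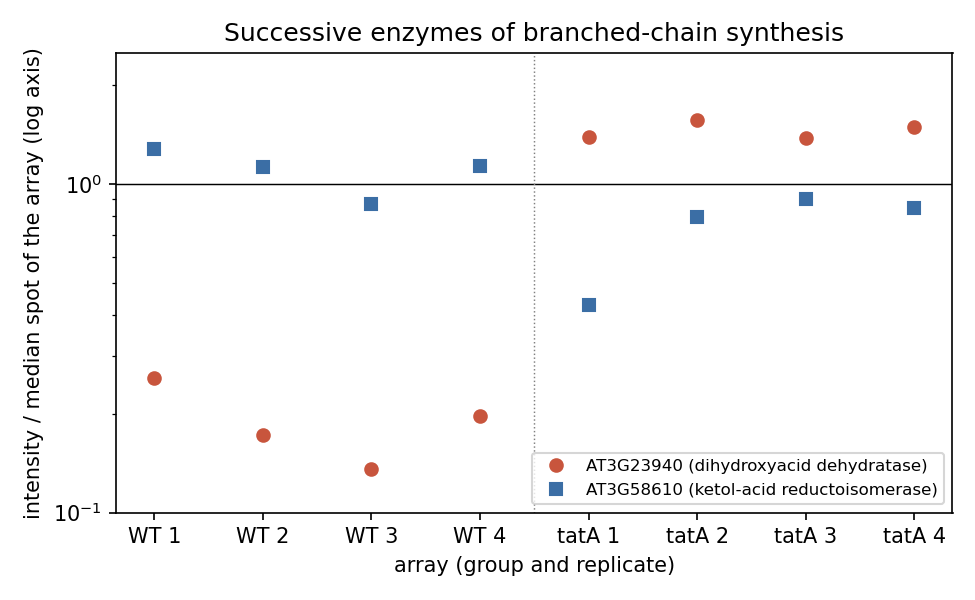
Intensity of AT3G23940 (circles) and AT3G58610 (squares) divided by the median spot of the same array (y axis, log), on 4 WT and 4 tatA arrays, with the median spot as the line at 1. AT3G23940 is at 0.136 to 0.256 in WT and 1.38 to 1.57 in tatA, whereas AT3G58610 is at 0.868 to 1.28 in WT and 0.428 to 0.896 in tatA, where the ranges meet.

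The breakdown of branched-chain amino acids in mitochondria was represented by 1 of 19 listed genes. ETFQO (AT2G43400), which passes electrons from the acyl-CoA dehydrogenases of that route to ubiquinone, read 0.653, 0.542, 0.777 and 0.778 on WT replicates 1 to 4. It read 0.465, 0.508, 0.473 and 0.625 on tatA replicates 1 to 4, so that the groups overlapped. Its log2 difference after quantile normalization was -0.04 (SE 0.14, limma adjusted p = 0.854).

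No gene of the plastid machinery that builds iron-sulfur clusters, on which dihydroxyacid dehydratase depends, was measured under its own name (0 of 15 listed). Among 20 other plastid proteins with iron-sulfur clusters 2 were, and neither passed after quantile normalization, where 32.1% of all rows did. THIC (AT2G29630), which makes the pyrimidine part of thiamine, read 0.473, 0.527, 0.574 and 0.666 on WT replicates 1 to 4 and 0.314, 0.365, 0.342 and 0.334 on tatA replicates 1 to 4. Every tatA value lay below every WT value, as for 33.7% of all rows on this scale and 18.9% after quantile normalization, where THIC was apart too. Its log2 difference after quantile normalization was -0.36 (SE 0.14, limma adjusted p = 0.0810). THIC passed on the deposited scale (limma adjusted p = 0.00882), without the filter on zeros (0.0309) and without the intensity trend (0.0446). AT2G04700, for the catalytic part of ferredoxin-thioredoxin reductase, had a mean of 0.483 ± 0.0957 in WT and 0.273 ± 0.0471 in tatA (SD, n = 4 arrays), and a log2 difference of -0.47 (SE 0.19, limma adjusted p = 0.0810). It passed on the deposited scale (limma adjusted p = 0.0148) and without tatA replicate 1 (0.0443). On the deposited scale 33.1% of all rows passed as lower in tatA.

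Synthesis of other amino acids in the plastid was covered by 4 of the genes listed. None of these 4 passed after quantile normalization (limma), beside 32.1% of all rows. CBL (AT3G57050), the cystathionine beta-lyase of methionine synthesis, had a log2 difference of -0.72 (limma adjusted p = 0.208), and it passed with a fixed block for replicate number (0.0455) but not with a random one (0.150). It passed on the deposited scale (limma adjusted p = 0.0444), where 33.1% of all rows passed as lower, and centred on neighbouring spot numbers (0.0411). Within replicates 3-4 it fell by 1.05 on the log2 scale (limma adjusted p = 0.0183), and its value in replicates 1-2 was -0.39 (0.249). AT3G53580, the diaminopimelate epimerase of lysine synthesis, was listed at 0 on tatA replicate 2, with means of 0.120 ± 0.0806 and 0.0526 ± 0.0449 (SD over 4 arrays; adjusted p = 0.704 by limma). AT4G26900, of histidine synthesis, had a log2 difference of 0.15 (limma adjusted p = 0.572), which was -0.26 without normalization. AT5G10920, the argininosuccinate lyase of arginine synthesis, had one of -0.19 (limma adjusted p = 0.540). No gene of the aromatic list or of the serine, cysteine and glutamine list was measured under its own name.

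Over the 9 lists, which hold 153 genes, 8 genes were tested, and AT3G23940 is not counted among them. After quantile normalization 0 of the 8 passed (limma), 3 had an unadjusted p under 0.05, and 7 of the 8 values were negative, with a median of -0.42. Of all rows 32.1% passed, 44.8% had an unadjusted p under 0.05 and 54.7% were negative, with a median of -0.09. On the deposited scale 4 of the 8 passed, all lower in tatA (AT3G58610, THIC, AT2G04700 and CBL), beside 33.1% of all rows. None of these 8 genes was higher in tatA by the test, in either scale. With so few members measured, the counts describe these 8 genes and not their routes.

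Of the 6 spots within 3 numbers of that of AT3G23940, those directly before and after it did not pass after quantile normalization. Of the others 2 did, beside 32.1% of all rows. Spot 2423 had means of 0.587 ± 0.0821 in WT and 0.558 ± 0.0705 in tatA (SD over 4 arrays; adjusted p = 0.161 by limma). Spot 2425, assigned to AT1G73120, was as dim as AT3G23940 in WT and stayed so, with means of 0.0716 ± 0.0584 and 0.0755 ± 0.0425 (SD over 4 arrays; adjusted p = 0.336 by limma). Spot 2422 went from 0.237 to 0.231 and spot 2427 from 0.298 to 0.327 (limma adjusted p = 0.390 and 0.0899). Spot 2421, without a gene name, rose from 0.408 ± 0.0637 to 0.944 ± 0.0742 (SD over 4 arrays). Its log2 change was 1.59 (limma adjusted p = 3.79e-05, and 0.0491 with replicate pairs averaged). Spot 2426, the brightest of the 6, rose by 0.69 on the log2 scale (limma adjusted p = 0.00754) but did not pass on the deposited scale (0.119) or with replicate pairs averaged (0.139). Its tatA values were 3.73 and 3.49 in replicates 1 and 2 against 6.13 and 6.30 in replicates 3 and 4. How spot numbers map to places on the array is not stated in the sources used. With each array centred on the 20 nearest spot numbers, the difference of AT3G23940 was 2.66, that of spot 2421 was 0.99 and passed (limma adjusted p = 0.00146), and that of spot 2426 was 0.33 and did not (0.186).

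Named genes closest to AT3G23940 along chromosome 3 are not close to it, with 28 protein-coding genes or more in between. CYN (AT3G23490), which encodes cyanase, had means of 3.004 ± 0.202 in WT and 2.10 ± 0.204 in tatA (SD, n = 4 arrays), with 48 genes in between. Its log2 difference after quantile normalization was -0.19 (limma adjusted p = 0.0906), and it fell by 0.52 on the deposited scale (limma adjusted p = 0.00325), where the median row lay at -0.47. AT3G24190, on the other side with 28 genes in between, had a log2 difference of 0.59 (limma adjusted p = 0.0922). The next ones outward, AT3G22690 and AT3G25410, had values of 0.04 and -0.71 (limma adjusted p = 0.938 and 0.131). AT3G25410 passed as lower on the deposited scale (limma adjusted p = 0.0388), as did 33.1% of all rows.

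The named genes most like AT3G23940 were found by the root mean square difference between log2 profiles over the 8 arrays, each centred on its own mean. A flat profile would differ by 1.60, and the median named gene differed by 1.73. AT2G30100 was nearest (0.389), with intensity means of 0.318 in WT and 1.88 in tatA. AT1G22700 (0.422), AT5G22620 (0.434), FBL17 (0.499) and AT3G06870 (0.576) followed. These 5 are like AT3G23940 mainly in the step between the groups, with log2 differences from 2.24 to 3.81. Without quantile normalization, where a factor common to an array cancels out of this measure, 4 of the 5 were again among the nearest 5 and AT2G30100 was first, and with the 10th percentile offset 3 were and AT5G22620 was first.

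**Figure D5:**
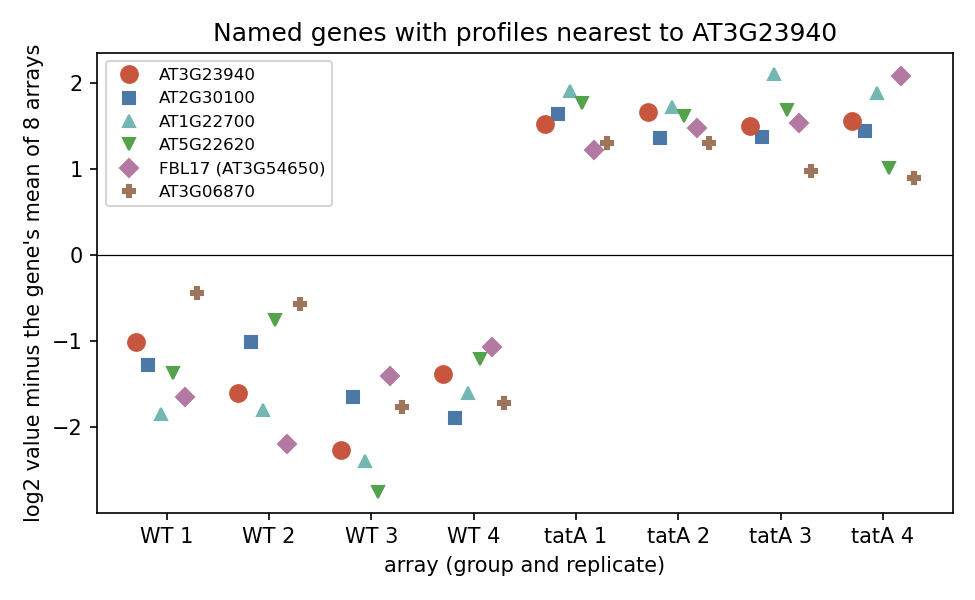
Log2 values after quantile normalization minus each gene's mean over 8 arrays (y axis) for AT3G23940 and the 5 named genes with the nearest profiles, on 4 WT and 4 tatA arrays. All 6 genes lie below 0 on the WT arrays and above 0 on the tatA arrays, with AT3G23940 spread over 1.25 in WT and 0.17 in tatA.

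Once the group means were removed, other genes were nearest. AT5G53920 differed from AT3G23940 by 0.115 over the 8 arrays, where a flat profile would differ by 0.326, and AT3G26630, a pentatricopeptide repeat gene, by 0.182. AT1G07460 (0.187), SIS (0.191) and AT3G54930 (0.196), a regulatory subunit of protein phosphatase 2A, came next. Like AT3G23940, AT5G53920 had its lowest WT value on replicate 3 (0.123, against 0.251, 0.183 and 0.243 on replicates 1, 2 and 4). None of these 5 was among the nearest 5 with the 10th percentile offset, and 3 were on the deposited scale. This likeness within groups thus depends on the offset and on the normalization.

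The tissue could be checked little. Of 10 listed genes of green leaf only LHB1B2, a light-harvesting protein gene, was measured, at 6.43 ± 1.31 in WT and 8.01 ± 0.701 in tatA (SD over 4 arrays; adjusted p = 0.0624 by limma), and of 11 listed genes of seed, pollen and root none was. The log2 value of LHB1B2 was 0.39, and it passed with median centring (0.69, limma adjusted p = 0.0204), 75th percentile scaling (0.73, 0.0137), a block for replicate number (0.0310 fixed, 0.0405 random) and without WT replicate 2 (0.55, 0.00353). It did not with replicate pairs as a random block (0.297), and it passed in 9 of the 33 settings. The part of cell composition in the difference of AT3G23940 was not tested.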

How the data were processed

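The deposited table holds 1 intensity per spot and array, on a linear scale up to 100; how the authors read, corrected or scaled the spots is not stated in the sources used, so scale factors stay unknown. The deposited intensity medians per array are those in the text, direction is tatA relative to WT, and precision is limited by having 4 arrays a group. These arrays are not independent, since replicates 1-2 and 3-4 resemble each other (consensus correlation within pairs 0.546). The p-values that treat them as independent may be too small, and with pairs averaged 1.75% of rows passed. Spots were named through the platform annotation and RefSeq (TAIR10.1): 692 carry 1 gene, 870 several, which were not named, and 1877 none; 690 of the 692 matched a locus. Spots at 0 on more than 4 of 8 arrays (177) were left out, other zeros set to the array's smallest positive value, log2 taken, quantile normalization applied and the spots of 1 gene that had 2 averaged, leaving 3261 rows, 646 named. Other groups of settings were scalings, offsets, filters, variance models, replicate blocks, arrays left out and centring on spot numbers.

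Groups were compared with limma 3.58.1 (R 4.3.3, lmFit, eBayes with trend, two-sided, Benjamini-Hochberg over all rows). The fit was tested on simulated data with noise drawn independently for each array. That simulation therefore does not bear on arrays that resemble each other in pairs. Figures used matplotlib 3.10.9 in Python 3.11.15. AT3G23940, the gene lists and the tests were chosen with earlier results of these data known. Named were AT3G23940, measured list members, the 5 nearest profiles of each kind, spot numbers within 3, up to 2 named loci a side, and 3 named genes a side by rise. AT4G14330 and the genes with larger rank gains were named after their values were seen. Same-numbered WT and tatA arrays deviated together (correlations across rows 0.284, 0.311, 0.266 and 0.337), which replicate pairs 1-2 and 3-4 also raise; no label says what a number marks.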

Additional observations from a re-analysis of the deposited data

Results flagged for a closer look

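Among the 68 groups of 4 arrays checked, those of the genes and spots named above, 2 held an array far from the other 3, and chance gives about 1 in 20. AT1G22700, one of the nearest profiles to AT3G23940, read 0.109 on WT replicate 4 and between 0.0777 and 0.0810 on the other WT arrays. AT1G54520 read 0.0667 on tatA replicate 4 and between 0 and 0.00729 on the other tatA arrays. AT3G23940 itself had no such array in either group.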

How the results depend on the processing

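The log2 difference of AT3G23940, 3.13, moved by less than the spread between replicates in 21 alternatives and by more in 8. These were the deposited scale (2.62, and 1.67 with the 10th percentile offset), offsets of the 10th, 25th and 50th percentile (1.93, 1.45 and 1.02), median centring and 75th percentile scaling with the 10th percentile offset (1.95 and 2.02), and centring on neighbouring spot numbers (2.66). Leaving out 1 array gave 2.91 to 3.33. It has no value with the dimmest 50% of rows left out, nor has AT3G58610. With 1 array of each group per replicate number, a block for that number, fixed or random, cannot move the difference of AT3G23940 from 3.13. Nor can pairs as a block or averaged, and these settings are counted in the 21. With the replicate block 1027 (fixed) and 1176 (random) of all rows passed, against 1046 without it. CBL passed with the fixed block (limma adjusted p = 0.0455), and no other call of the 8 list genes changed. With replicate pairs 1-2 and 3-4 as a random block 537 rows passed, with pairs averaged 57, and with 1 array left out 784 to 951. AT3G58610 was called on the deposited scale, with or without the offset (1 gene each), and in 0 of the 8 fits leaving out 1 array. Signs turned, without passing, for AT4G26900 (-0.26 and, with the offset, -0.23 on the deposited scale, -0.065 in replicates 1-2), AT5G10920 (0.10 centred on spot numbers, 0.14 in replicates 1-2, -0.34 to 0.0095 leaving out 1 array), ETFQO (0.012 with 75th percentile scaling and offset, -0.13 to 0.014 leaving out 1 array) and AT3G53580 (-2.26 to 0.48 leaving out 1 array). The cause was not tested. Dim WT values of AT3G23940 limit how well the size of its difference is known.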
